A study of Caenorhabditis elegans with 6 samples.

Results

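The F-box A genes are a large gene family of the nematode Caenorhabditis elegans. They were taken here as the array features whose gene symbol is a single fbxa name with no more than 1 WormBase gene identifier beside it, with the feature of highest mean log2 intensity used for a gene with several. This gave 155 genes on 159 features, out of 17082 genes that a feature names singly. A further 11 features were set aside. Of these, 8 carry several fbxa symbols, and 3 carry 1 symbol (fbxa-77, fbxa-92 and fbxa-154) with 2 gene identifiers and a title that names another fbxa locus. fbxa-77 has a feature of its own, while fbxa-92 (log2 difference 0.10 ± 0.20, mutant minus wild type, with its standard error) and fbxa-154 (-0.21 ± 0.18) are not among the 155. The RefSeq gene table lists 222 fbxa symbols, and all 155 genes matched a symbol there.

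The study compared whole mixed-stage embryos of the mir-35-41(nDf50) deletion mutant (3 arrays) with those of the wild type strain N2 (3 arrays), both cultured at 20 degrees Celsius on agar medium to which chicken egg yolk was added. The mutant strain is given as VT2935 lacking nEx1187, by nomenclature an extrachromosomal array. The deletion takes out several microRNAs of one cluster at once, so it is no model of any single one of them. Embryos were freed with hypochlorite from mixed cultures, and total RNA was hybridised to Affymetrix arrays. Free-text lines in the labels describe narrower embryo stages, at odds with the stage field, and were not used. The labels do not state whether the arrays of a group are separate cultures. The p-values therefore reflect only how far these samples vary, which may be technical variation.

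F-box proteins are the substrate adaptors of SCF ubiquitin ligases. The F-box binds an adaptor of the Skp1 type, called SKR in this animal, which sits on a cullin, and the rest of the protein holds the target. In F-box A proteins that part is an FTH domain, also found in FOG-2, a germline regulator of hermaphrodite sex. Nematodes have many more such genes than most animals, often in neighbouring copies that have diverged quickly. FBXA-75 and FBXA-158 are known as adaptors of a CUL-6 ligase that belongs to the transcriptional response to intracellular pathogens. For most other members no role is given here.

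Most F-box A genes gave dim signals in these embryos. A gene was called expressed where its mean log2 intensity over the 6 arrays was at or above 6.49, the median over all 22548 tested features, and dim below it. By that rule 18 of 155 genes (11.6%) were expressed and 137 were dim, while the line itself puts 50% of all features on each side. The F-box B family had 56 of 96 genes above the line, F-box C had 23 of 41, and the BATH and MATH genes, some of which encode adaptors of another cullin ligase, had 15 of 81. Intensity also depends on the probes, so the line sorts features and does not rank transcripts. No detection calls were used.

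The line falls between close values. Just above it were fbxa-108, at 6.78, 6.84 and 6.52 in the mutant and 6.79, 6.84 and 5.79 in wild type (log2 intensity of replicates 1, 2 and 3 in that order, as in all such values here), then fbxa-141 and fbxa-64. Just below it were fbxa-77, at 6.53, 6.53 and 6.52 in the mutant and 6.86, 6.52 and 5.53 in wild type, then fbxa-67 and fbxa-129. On fbxa-108 and fbxa-77 wild type replicate 3 alone was low, and the groups overlapped on both. A line at the upper quartile (8.57) left 2 members above it, and one at the lower quartile (4.74) left 57.

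Between the genotypes, no F-box A gene passed the test. By limma with Benjamini-Hochberg adjustment over all 22548 features, 0 of 155 members had an adjusted p under 0.05, against 0.129% of all features (0.124% higher and 0.00443% lower). At an unadjusted limma p under 0.05 there were 12 members with a higher level in the mutant, 7.74% of the family, against 6.23% of all features, and 0 with a lower level, against 3.97%, and over both directions the features reach 10.2%. The share on the higher side was thus near that of all features, which are not matched for level. Shares by level are given below. The smallest adjusted p of any member was 0.105. Each difference is the mean log2 intensity of the mutant less that of wild type, given with its standard error (SE) from limma.

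**Figure D1:**
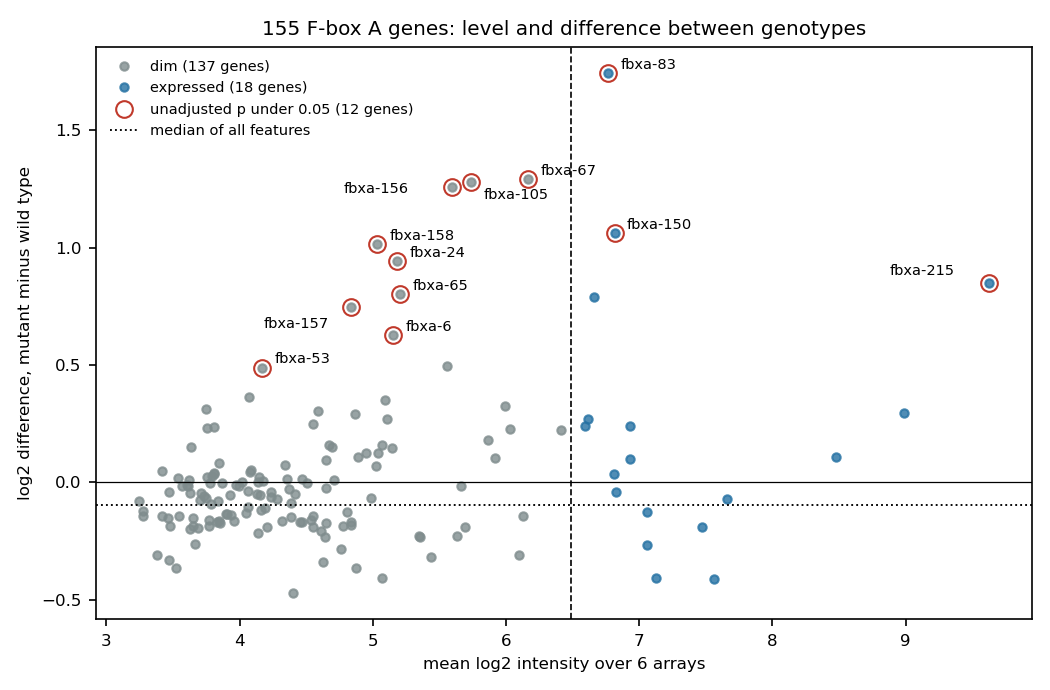
Mean log2 intensity over the 6 arrays (horizontal) against the log2 difference, mutant minus wild type (vertical), for each of the 155 F-box A genes. The dashed line at 6.49 parts 137 dim from 18 expressed genes, the dotted line is the median difference of all features (-0.10), and circles mark the 12 genes at an unadjusted p under 0.05, all of them above 0.

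In the deposited values the family as a whole was centred near no difference. Its median log2 difference was -0.04, against -0.10 for all features. After quantile normalization of the deposited values it was 0.056. With arrays centred on their medians it was -0.17, and the median of all features was then also lower. In the deposited values, 63 members were above 0 and 92 below. In 143 of 155 members the difference was under 0.5 in either direction. The range was from -0.47 to 1.74, so the largest positive differences were wider than the largest negative ones. At least 2-fold higher were 6 members, 3.87% of the family, against 3.06% of all features, and at least 2-fold lower were 0, against 0.231%.

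In the 18 expressed genes the median difference was 0.10, against -0.01 for all genes above the line, and -0.02 when arrays were centred on their medians. For the 137 dim genes it was -0.05, against -0.14 for all genes below it. It was 0.056 after quantile normalization of the deposited values and -0.18 with arrays centred. Among the expressed, 3 (16.7%) were higher at an unadjusted p under 0.05, against 9.51% of all genes above the line. Among the dim, 9 (6.57%) were, against 3.57% of all genes below it. All 12 are annotated as protein-coding.

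The member with the smallest p was fbxa-150, an expressed gene on chromosome V. Mutant arrays read 7.27, 7.38 and 7.39 for it, and wild type arrays read 6.26, 6.53 and 6.06. The mutant arrays lay close together, and the lowest was 0.74 above the highest wild type array. The difference was 1.06 ± 0.18 (SE), or 2.09-fold, with an unadjusted limma p of 0.000389 and an adjusted p of 0.105.

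A pair of dim genes on chromosome V had similar values. For fbxa-105 the mutant arrays read 6.12, 6.53 and 6.49 and the wild type arrays 5.26, 5.32 and 4.71, a difference of 1.28 ± 0.22. For fbxa-156 the mutant arrays read 6.04, 6.36 and 6.28 and the wild type arrays 5.09, 5.25 and 4.55, a difference of 1.26 ± 0.22. On both, the groups were apart, by 0.79 and 0.78 log2 units, and wild type replicate 3 was the lowest array. Their limma adjusted p were 0.118 and 0.120.

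The fbxa-156 feature has a suffix that marks probes shared between transcripts, and a separate feature names fbxa-156 and fbxa-157 together. That shared feature was at 7.21, 7.54 and 7.17 in the mutant and 6.95, 6.62 and 6.21 in wild type, a difference of 0.71 ± 0.23 (limma adjusted p = 0.412). The own feature of fbxa-157 had a difference of 0.75 ± 0.31, with overlapping groups. fbxa-157 was named after its values were seen. Signal of these 2 genes cannot be told apart on the shared feature.

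Also without overlap was fbxa-65, a dim gene on chromosome V. It was at 5.66, 5.54 and 5.61 in the mutant and 4.81, 4.59 and 4.998 in wild type. The difference was 0.80 ± 0.17 (limma adjusted p = 0.194), and here wild type replicate 3 was the highest wild type array rather than the lowest.

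The remaining genes with small p had narrower gaps between the groups. fbxa-24, on chromosome II, read 5.31, 5.85 and 5.79 in the mutant and 5.01, 5.01 and 4.11 in wild type, a difference of 0.94 ± 0.29. fbxa-6, on chromosome III, read 5.30, 5.61 and 5.49 in the mutant and 4.70, 5.24 and 4.57 in wild type, a difference of 0.63 ± 0.22. On fbxa-6 mutant replicate 1 and wild type replicate 2 were only 0.05 apart. fbxa-53, on the X chromosome, read 4.26, 4.30 and 4.67 in the mutant and 4.08, 3.90 and 3.78 in wild type, a difference of 0.49 ± 0.18. The adjusted p of these 3 genes by limma were 0.382, 0.445 and 0.458.

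**Figure D2:**
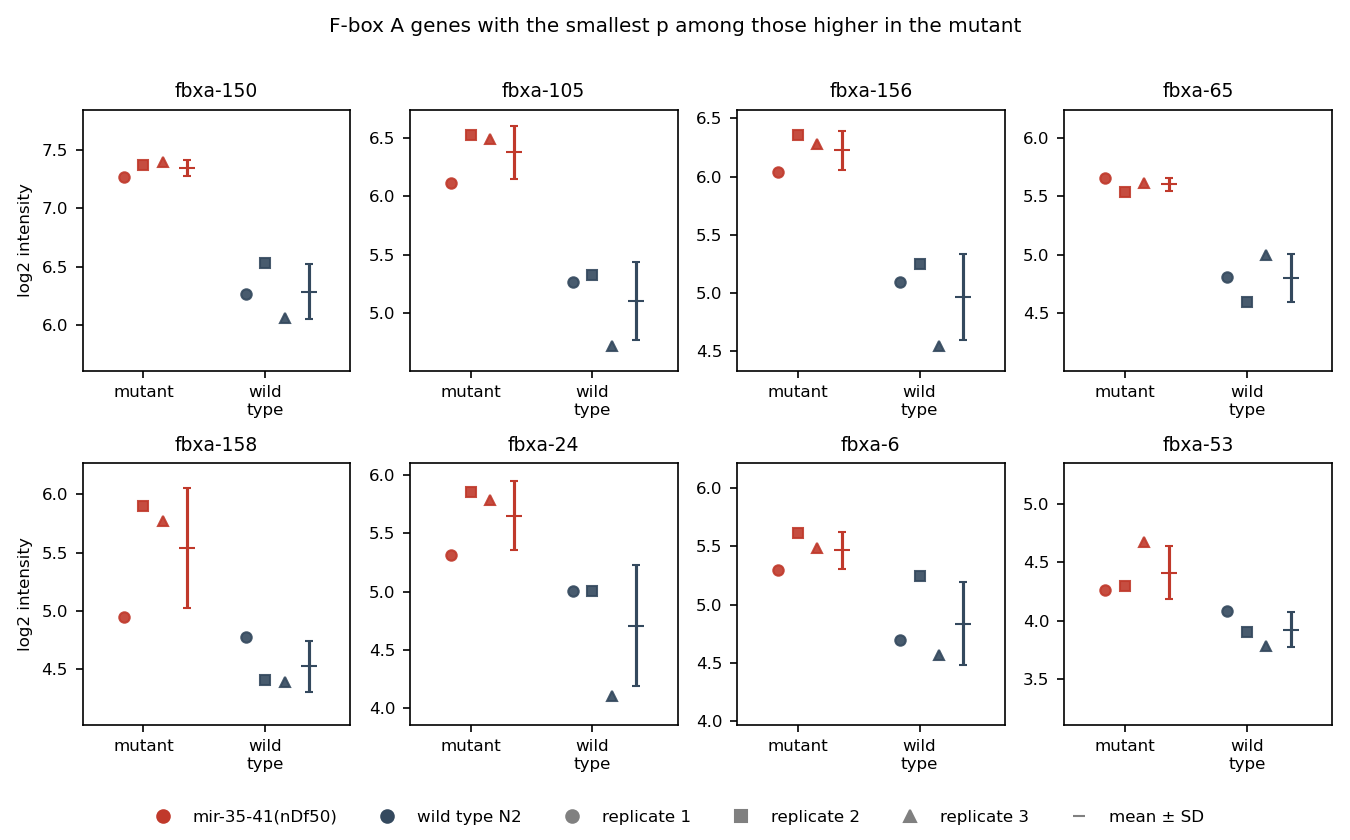
Log2 intensity on each array for the 8 F-box A genes with the smallest p among those higher in the mutant; symbols are replicates, bars are mean ± SD (n = 3 arrays per genotype), and every panel spans the same number of log2 units. All 3 mutant arrays lie above all 3 wild type arrays in each panel, and the gap is widest in fbxa-105, fbxa-156 and fbxa-150.

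On the lower side the differences were smaller. fbxa-22, a dim gene on chromosome III, was at 4.14, 4.22 and 4.13 in the mutant and 4.53, 4.35 and 5.02 in wild type. The difference was -0.47 ± 0.20 (limma adjusted p = 0.496), with no overlap but a gap of only 0.13. fbxa-218 (-0.37 ± 0.20) and fbxa-183 (-0.36 ± 0.21) also had no overlap. On all 3, wild type replicate 3 was the highest array.

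Groups overlapped for the other members with the smallest p on this side. These were fbxa-149 (-0.41 ± 0.19), which is annotated as a pseudogene and lies above the line, fbxa-94 (-0.41 ± 0.20), fbxa-184 (-0.34 ± 0.20), fbxa-15 (-0.33 ± 0.20) and fbxa-139 (-0.28 ± 0.17). Their limma adjusted p were between 0.508 and 0.580. For fbxa-149 the mutant arrays read 7.08, 6.95 and 6.74 and the wild type arrays 7.40, 7.08 and 7.50, with wild type replicate 2 equal to mutant replicate 1 at this precision.

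Counted over the family, 13 members had all mutant arrays above all wild type arrays, 8.39% of the family against 6.16% of all features, and 8 had them all below, 5.16% against 9.37%. The first share was somewhat above that of all features, and the second was below it. In dim members the shares were 8.03% and 5.84%, against 4.12% and 9.75% of all genes below the line. In expressed members they were 11.1% and 0%, against 8.59% and 9.03% of all genes above it. Whether these shares differ was not tested. Among the 13 was fbxa-64, an expressed gene described below.

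Several of the widest differences rest on wild type arrays that were far apart. fbxa-83, on chromosome IV, had the widest range of any member. It had 7.20, 7.79 and 7.92 in the mutant, against 4.53, 7.67 and 5.47 in wild type. Wild type replicate 2 lay inside the mutant range, and the other wild type arrays lay far below every mutant array. The difference was 1.74 ± 0.71, or 3.35-fold, with a limma adjusted p of 0.478. Against wild type replicate 2 alone it was -0.03.

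The same split of the wild type arrays appeared in other members. fbxa-67, on chromosome III, read 6.63, 6.92 and 6.88 in the mutant and 5.66, 6.64 and 4.25 in wild type, a difference of 1.29 ± 0.53. fbxa-215, on chromosome IV, read 9.97, 9.97 and 10.22 in the mutant and 8.95, 9.97 and 8.70 in wild type, a difference of 0.85 ± 0.32. On fbxa-215 wild type replicate 2 was level with mutant replicates 1 and 2, and its feature carries the suffix for shared probes. fbxa-64, on chromosome V, read 7.12, 7.09 and 6.96 in the mutant and 6.53, 6.89 and 5.38 in wild type, a difference of 0.79 ± 0.36. Of these, fbxa-64 alone had no overlap, by a gap of 0.07.

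In 15 of 155 members (9.68%) wild type replicates 1 and 3 were both below all 4 other arrays, and in 26 (16.8%) both were above them. Over all features these shares were 13.8% and 24.4%. The family's shares were below those of all features.

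**Figure D3:**
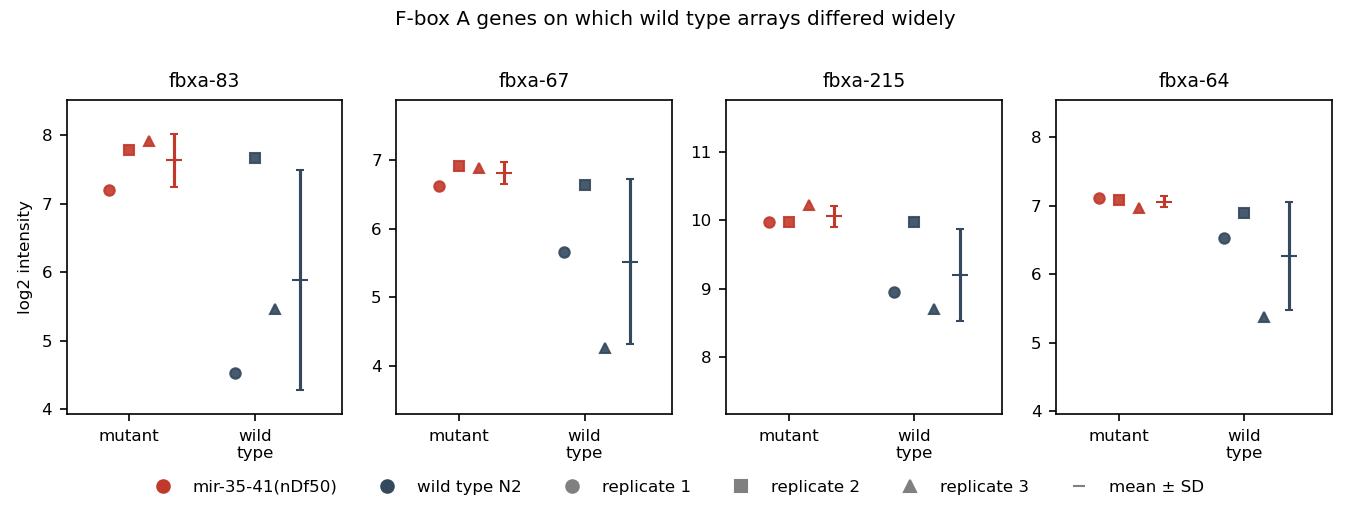
Log2 intensity on each array for fbxa-83, fbxa-67, fbxa-215 and fbxa-64; symbols are replicates, bars are mean ± SD (n = 3 arrays per genotype), and every panel spans the same number of log2 units. Wild type replicate 2 (square) lies at or near the mutant arrays in every panel, and wild type replicates 1 and 3 lie below them.

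The other members with high intensity differed little. fbxa-210, on chromosome V, was at 9.23, 9.11 and 9.08 in the mutant and 8.93, 9.08 and 8.50 in wild type, a difference of 0.30 ± 0.19. fbxa-101, on chromosome I, was at 8.80, 8.45 and 8.34 in the mutant and 8.78, 8.42 and 8.06 in wild type, a difference of 0.11 ± 0.23, which changed sign without mutant replicate 1 or wild type replicate 3. The mutant and wild type arrays overlapped on both.

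Below zero were fbxa-153 (-0.07 ± 0.21), fbxa-120 (-0.19 ± 0.24), fbxa-76 (-0.27 ± 0.22) and fbxa-107. fbxa-107 was at 7.52, 7.48 and 7.07 in the mutant and 8.28, 7.82 and 7.20 in wild type, a difference of -0.41 ± 0.29 (limma adjusted p = 0.598). Its groups overlapped, and wild type replicates 1 and 2 were its highest arrays.

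Near the line between dim and expressed, the differences were 0.24 ± 0.30 for fbxa-108, 0.27 ± 0.23 for fbxa-141, 0.22 ± 0.32 for fbxa-77 and -0.14 ± 0.20 for the pseudogene fbxa-129. None of these passed, and in each the groups overlapped.

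How the arrays sat relative to each other depended on the level of the genes. The 18 expressed members had a median deviation from their own 6-array means of 0.20, 0.02 and 0.01 in the mutant, and of 0.18, 0.20 and -0.45 in wild type. Wild type replicate 3 alone was low. All genes above the line had -0.13 on that array. In the 137 dim members the same array was high instead, at 0.13, against 0.24 for all genes below the line, and the other 5 arrays lay between -0.07 and 0.0039.

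Wild type replicate 3 was the lowest of the 6 arrays for 11 of the 18 expressed members and the highest for 69 of the 137 dim ones. Over all features it was the lowest for 24.6% and the highest for 41.9%. Without this array the median difference was -0.09 for expressed members and 0.0099 for dim members, so both medians changed sign. Across the 18 expressed members, mutant replicates 2 and 3 correlated at r = 0.98 and wild type replicate 2 with them at 0.93 and 0.91. Wild type replicate 1 correlated with mutant replicates 2 and 3 at 0.55 and 0.49. These correlations run over genes on single arrays and are given as descriptions.

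**Figure D4:**
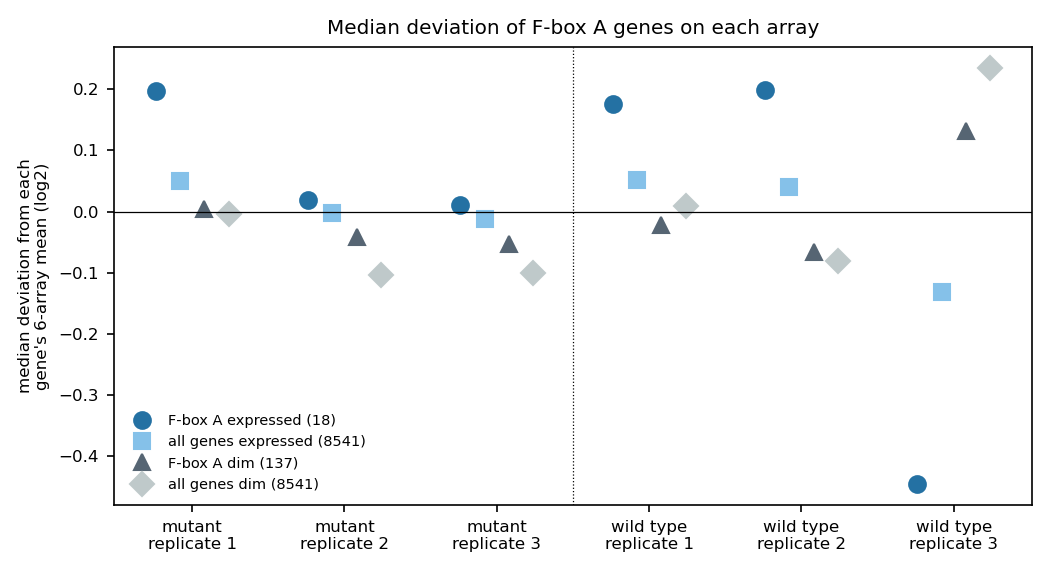
Median deviation of a gene's log2 intensity from its own mean over the 6 arrays (vertical), for each array (horizontal), in expressed and dim F-box A genes and in all genes of the same class; numbers of genes are in the key. Expressed F-box A genes sit at -0.45 on wild type replicate 3 and at or above 0.01 on the other 5 arrays, and dim ones sit at 0.13 on wild type replicate 3.

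By genome position the family is spread unevenly. Chromosome V holds 68 of the 155 genes, chromosome III 43, II 17, X 14, I 7 and IV 6, in the RefSeq table of assembly WBcel235. Expressed genes numbered 9 of 68 on chromosome V, 2 of 43 on III, 1 of 17 on II, 2 of 14 on X, 2 of 7 on I and 2 of 6 on IV. The median difference was between -0.09 on chromosome III and 0.14 on chromosome IV. The deleted microRNAs lie on chromosome II, where the median was 0.01. There 5 of 17 members (29.4%) had all mutant arrays above all wild type arrays, against 8.39% of the family and 6.16% of all features. They were fbxa-158, fbxa-182, fbxa-24, fbxa-165 and fbxa-169. The gap was only 0.04 for fbxa-165 and for fbxa-169, which were named after their values were seen. fbxa-182 and fbxa-24 have features with a suffix for shared or cross-reacting probes. At an unadjusted limma p under 0.05, 2 of the 17 were higher (11.8%), against 6.23% of all features. Whether the chromosomes differ was not tested. The distance of these members from the deletion was not measured here.

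Part of the family stands in runs of neighbours. In the RefSeq order of protein-coding genes and pseudogenes, 65 of the members stand in 21 runs of 2 to 6 adjacent F-box A genes. The longest run, on chromosome II, holds fbxa-164, fbxa-165, fbxa-166, fbxa-158, fbxa-159 and fbxa-160. In it fbxa-158 had a difference of 1.02, and the other 5 had differences between -0.17 and 0.23. Next to fbxa-83 (1.74) stands fbxa-126 (-0.06), a dim gene. Beside fbxa-67 (1.29), the other 3 genes of its run, fbxa-23, fbxa-11 and fbxa-10, had differences between -0.14 and 0.10. These 3 runs were picked because they hold members already named for a small p or a wide range. That 1 member of each differs widely was thus given by the choice. The differences of fbxa-83 and fbxa-67 rest on the split wild type arrays described above. The neighbours in these 3 runs were named after their values were seen. On chromosome V, fbxa-107 (-0.41) and fbxa-210 (0.30) are adjacent and differed in opposite directions, neither past the test.

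Among the members, 134 are annotated as protein-coding and 21 as pseudogenes. Expressed genes numbered 17 of 134 and 1 of 21, with fbxa-149 the only pseudogene above the line. Median differences were -0.01 and -0.14. Array features can cross-react with close copies, so signal on a pseudogene's feature may come from another gene. Of the 155 features, 15 carry a suffix for shared or cross-reacting probes, and 4 of the 12 genes at an unadjusted p under 0.05 are among them (fbxa-156, fbxa-24, fbxa-215 and fbxa-67). When such features were removed, 8 of 141 members remained at that limit on the higher side and 1 on the lower. Of the features left, 5.76% were higher and 3.98% lower.

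Known partners of the family were read beside it. fbxa-158, the CUL-6 adaptor gene, had 4.95, 5.90 and 5.77 in the mutant, against 4.78, 4.41 and 4.39 in wild type. Mutant replicate 1 was only 0.17 above the highest wild type array, and the other mutant arrays were much further above it. The difference was 1.02 ± 0.28, or 2.02-fold (limma adjusted p = 0.315). The other known adaptor, fbxa-75, read 3.72, 3.88 and 4.17 in the mutant and 3.63, 3.56 and 3.89 in wild type, a difference of 0.23 ± 0.19 with overlap. fbxa-182, for which no role is given here, read 3.75, 4.04 and 3.93 in the mutant and 3.46, 3.66 and 3.65 in wild type. The difference was 0.31 ± 0.16, with no overlap but a gap of only 0.09. Its feature carries the suffix for shared probes. All 3 are dim.

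Of the same ligase, the cullin gene cul-6 had a difference of 0.31 ± 0.17, and the Skp1-type adaptor genes skr-3, skr-4 and skr-5 had 0.91 ± 0.27, 0.53 ± 0.23 and 1.05 ± 0.22. skr-5 was at 5.81, 6.33 and 5.95 in the mutant and 5.17, 4.62 and 5.14 in wild type, with no overlap. For skr-3 the mutant arrays read 8.94, 9.48 and 9.75 and the wild type arrays 8.30, 8.87 and 8.27, also with no overlap. None passed after adjustment by limma (adjusted p from 0.199 to 0.554).

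The list of the intracellular pathogen response held 31 measured genes, 22 of them of the pals family, which includes pathogen-induced members and regulators of the response, together with the 4 ligase genes just named. In it 0 genes passed. At an unadjusted p under 0.05 there were 9 higher and 0 lower, where all features had 6.23% and 3.97%, with a median difference of 0.10. The smallest p besides skr-5 belonged to eol-1 (1.15 ± 0.27), which encodes a protein related to RNA-decapping enzymes, pals-27 (0.74 ± 0.21) and pals-29 (0.53 ± 0.15), with limma adjusted p between 0.245 and 0.346. Only 3 of the 31 lie above the line of 6.49.

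The core SCF genes gave no call. Of 22 measured genes 18 were above the line, 0 passed, and 3 were higher at an unadjusted p under 0.05 (skr-5, skr-3 and the RING subunit gene rbx-2, at 0.50 ± 0.21) with 0 lower. That is 13.6% of the list higher, against 6.23% of all features. The median was -0.17. The main cullin cul-1 was at -0.06 ± 0.24 and the main adaptor skr-1 at -0.19 ± 0.21. Of 12 regulators of cullins, most of which act in attaching or removing the activator NED-8, 0 passed, with a median of 0.02. At an unadjusted p under 0.05, 1 was higher (ned-8 itself, 0.59 ± 0.20), 8.33% of the list, and 0 were lower.

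**Figure D5:**
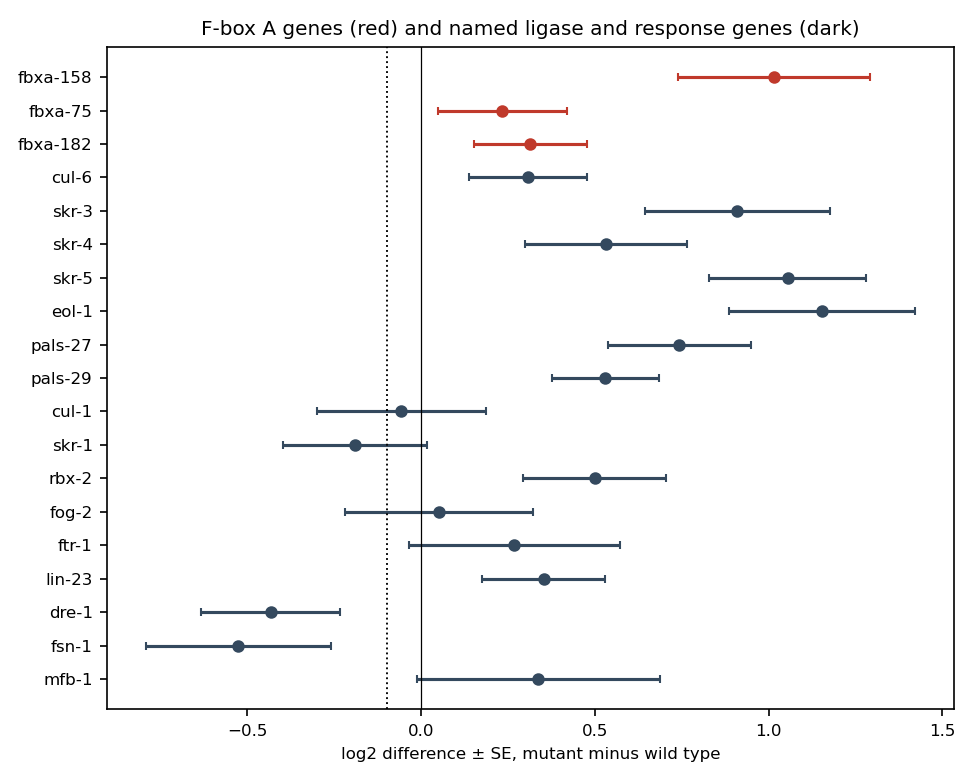
Log2 difference, mutant minus wild type, with its SE from the limma fit, for 3 F-box A genes (red) and for named genes of the SCF ligases, the intracellular pathogen response and other F-box genes (dark); the dotted line is the median of all features (-0.10). eol-1, skr-5 and fbxa-158 lie furthest to the right, at 1.15, 1.05 and 1.02, and none passed after adjustment.

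Of the listed F-box genes outside the A, B and C families, 10 of 10 measured were above the line. fog-2, whose product has the FTH domain and represses tra-2 with GLD-1 in the hermaphrodite germ line, was at 9.00, 8.32 and 8.28 in the mutant and 8.77, 8.62 and 8.07 in wild type, a difference of 0.05 ± 0.27. Its relative ftr-1 had a difference of 0.27 ± 0.30. The cell cycle regulator lin-23 was at 0.35 ± 0.18, with no overlap. The heterochronic gene dre-1, the synaptic gene fsn-1 and the muscle atrophy F-box gene mfb-1 were at -0.43 ± 0.20, -0.52 ± 0.27 and 0.34 ± 0.35. None passed (limma adjusted p from 0.508 to 0.931), and 0 of the 10 had an unadjusted p under 0.05.

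The related F-box families had other counts, beside 6.23% higher and 3.97% lower for all features. In F-box B, 0 of 96 genes were higher and 20 lower (20.8%) at an unadjusted p under 0.05, with a median of -0.26, and in F-box C 1 of 41 was higher and 6 lower, with a median of -0.24. F-box A had 12 higher and 0 lower, with its median of -0.04. None of the 3 families had a gene past the adjusted threshold. The difference between the families was not tested, and the families also differ in how many genes lie above the line.

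Other material in the samples was read from 3 marker lists. All 18 early maternal genes had means in the mutant below those of wild type, with 0 past the threshold. At an unadjusted p under 0.05, 7 of them (38.9%) were lower, against 3.97% of all features. Summed, the early maternal genes reached 15853 to 17406 in the mutant, against 24045, 17253 and 30407 in wild type (linear intensity). By this sum, in which bright genes weigh most, wild type replicate 2 lay inside the mutant range. By the median log2 deviation from gene means it lay above that range, at -0.15, against -0.22, -0.31 and -0.36 in the mutant. Wild type replicates 1 and 3 were at 0.45 and 0.65. Late embryo genes, 13 in number, summed to between 39858 and 41607 in the mutant and between 39632 and 58405 in wild type. The 16 genes of adults or sperm summed to between 926 and 1161 in the mutant and between 883 and 1351 in wild type. No marker was at 0 on any array. Their part in the differences of the F-box A genes was not tested, and in whole embryos fewer cells of a type and less RNA per cell cannot be told apart.

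Single arrays decided the counts given above. Leaving out mutant replicate 2 or 3 left 6 members on the higher side at an unadjusted p under 0.05, as did averaging these 2 nearly alike arrays. Of all features, 3.51%, 3.2% and 3.32% were on that side in these fits, against 6.23% with all arrays. Leaving out wild type replicate 2 gave 7 members past the adjusted threshold, fbxa-83, fbxa-150, fbxa-215, fbxa-156, fbxa-105, fbxa-6 and fbxa-67, all higher, against 5.72% of all features in that fit. Among them, fbxa-83 then had a difference of 2.63 and fbxa-67 one of 1.85. Without wild type replicates 1 and 3 together, fbxa-150 still had a difference of 0.82, fbxa-105 one of 1.06 and fbxa-156 one of 0.97. That fit rests on a lone wild type array, assumed to vary like the mutant ones. With arrays weighted by their estimated quality, 60 members passed, but so did 60.5% of all features.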

How the data were processed

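Total RNA of 6 samples was measured on Affymetrix arrays. The deposited table holds normalized intensity per feature on a linear scale, and the series value table holds the same values as log2, per the file headers (largest difference 5.63e-06). Per the submitters' processing notes, the authors used Affymetrix Expression Console; the normalization is not given in the sources used here. For arrays, their number (3 per group) limits the precision. Of 22625 features 77 controls were left out, and log2 intensity with no added constant was fitted with limma 3.58.1 in R 4.3.3 (lmFit, eBayes, two-sided, Benjamini-Hochberg over 22548 features, threshold 0.05), without a block. No filter on level was used, so all 155 members were tested, and 0 columns of per-sample values were left without a sample. The fit was also run on simulated data with independent noise and the same SD in both groups. In the data the median SD over all features was 0.15 in the mutant and 0.31 in wild type. That run therefore does not vouch for the calls here. Array groups came from titles and column names. The family and the gene lists were chosen with earlier results of these data known. Named members are those past the threshold, the 8 with the smallest p in each direction, the 8 brightest, 3 on each side of the line, the 3 with the widest range, and fbxa-75, fbxa-158 and fbxa-182. Of the SCF core, other F-box and pathogen response lists, the 4 with the smallest p are named, and always fog-2, ftr-1, cul-1, cul-6, skr-1 and lin-23. Alternatives are given in the closing section. No sequence was used here.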

Additional observations from a re-analysis of the deposited data

How the results depend on the processing

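The count of 0 members past the adjusted threshold stayed at 0 in every alternative run except without wild type replicate 2 and with array weights, which gave 60 members for weights per array and 15 for weights estimated gene by gene, where 60.5% and 16% of all features passed. The per-array estimate stopped before reaching its tolerance, with weights between 0.0955 and 21.1, so its calls are not read. Leaving out 1 array at a time gave 0 to 7 members past the threshold, 6 to 11 higher and 0 to 6 lower at an unadjusted p under 0.05. Of all features, 3.2% to 12.8% were higher and 1.27% to 11.4% lower at that limit. Medians over these fits ran from -0.07 to 0.0065 for the family, from -0.09 to 0.17 for expressed and from -0.08 to 0.0099 for dim members. Without wild type replicate 3, 3 members were lower at an unadjusted p under 0.05, against 5.08% of all features. Averaging mutant replicates 2 and 3 left 6 higher, against 3.32%. Removing dim features left 3 of 18 members higher, against 8.62% of the features kept, and gave no median over all or dim members. The weights per array gave 29 higher and 37 lower, against 23.2% and 41.4% of all features, and gene-by-gene weights 18 higher and 17 lower, against 15% and 19.7%. At that limit 1 member was lower after quantile normalization of the deposited values, against 5.49% of all features. The same count came with 16 added before log2 (against 4.3%) and with an intensity trend and robust prior (3.61%). It also came without features of shared probes (3.98% of those left) and with the mean of a gene's features (4.1%). Centring arrays on their medians gave 2 lower, against 6.35% of all features. The median over all and over dim members was 0.056 and 0.056 after the quantile normalization. After centring it was -0.17 and -0.18, when the median of all features was -0.22. Without wild type replicates 1 and 3 it was 0.034 and 0.035. With the line at the upper quartile the median over the 2 expressed members was 0.57. Gene-by-gene weights, the omission of wild type replicates 1 and 3 together and the recomputation of the unadjusted counts under each alternative were chosen after seeing the data.

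Signs turned in genes with small differences, and in fbxa-83. Leaving out 1 array at a time, mutant and wild type arrays alike, the difference ran from -0.072 to 0.29 for fbxa-101, from -0.25 to 0.11 for fbxa-153, from -0.10 to 0.42 for fbxa-108 and from -0.16 to 0.50 for fbxa-77. It ran from -0.24 to 0.041 for fbxa-129, from -0.31 to 0.11 for cul-1, from -0.18 to 0.19 for fog-2, from -0.32 to 0.0080 for skr-1 and from -0.081 to 0.67 for mfb-1. Without wild type replicates 1 and 3 together, fbxa-120 was at 0.19, fbxa-76 at 0.034, fbxa-108 at -0.13, fbxa-129 at 0.034, fbxa-83 at -0.035, fog-2 at -0.082, ftr-1 at -0.12, skr-1 at 0.070 and mfb-1 at -0.32. Quantile normalization of the deposited values put fbxa-101 at -0.00083 and fog-2 at -0.070, and centring put them at -0.020 and -0.077. Weights per array put fbxa-101 at -0.36, fbxa-108 at -0.11, fbxa-77 at -0.32, fog-2 at -0.42 and ftr-1 at -0.068, and gene-by-gene weights put them at -0.26, -0.054, -0.19, -0.37 and -0.075. The cause of these changes was not tested. Same-numbered arrays deviated together at r = -0.03, 0.07 and -0.18, and pairs with unlike numbers at r from -0.22 to 0.30. The deviations were taken within groups of 3 arrays. These values therefore cannot show whether same-numbered arrays share a batch. With the replicate block 0 members passed, while 19 features passed in all, and the family's median was -0.04. At an unadjusted p under 0.05, 12 members were higher and 0 lower, against 7.1% and 2.84% of all features.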
